A study of Mus musculus with 70 samples.

Results

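The enzymes and regulators of cholesterol and fatty acid synthesis were followed in the lungs of 70 female B6C3F1 mice, an F1 hybrid used in carcinogenicity bioassays. The members were 29 genes given by symbol, and each was represented by the probe set with its highest mean over all arrays. Of these, 28 had a probe set with a single symbol, and all 28 passed the filter on dim genes, so that they stand among 14593 genes tested; Acat2 was not analysed here. On the sterol side were 17 of them and on the fatty acid side 11.

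Each mouse gave 1 array (an Affymetrix mouse genome array) of RNA from the right lung lobe after 13 weeks of exposure, at 18 weeks of age. Set 1 held groups of 3 mice: 1,5-naphthalenediamine at 2000 ppm, N-(1-naphthyl)ethylenediamine dihydrochloride at 2000 ppm and pentachloronitrobenzene at 8187 ppm with feed controls, and 2,3-benzofuran at 240 mg/kg with corn oil controls. Set 2 held groups of 4 mice, and its controls were 8 mice given corn oil, 4 given water and 4 on plain feed. In set 2 the feed carried malathion (16000 ppm), diazinon (200 ppm), 4-nitroanthranilic acid (10000 ppm) or, at 1250 ppm, 2,2-bis(bromomethyl)-1,3-propanediol. Corn oil was the vehicle of benzene (100 mg/kg), coumarin (200 mg/kg) and 1,2-dibromoethane (62 mg/kg), and water that of N-methylolacrylamide (50 mg/kg) and 2-chloromethylpyridine hydrochloride (250 mg/kg). Feed was offered on 7 days a week, and gavage was given on 5 days a week at 5 ml/kg. No mouse carried an engineered allele in the labels, and each chemical was tested at 1 dose. By the labels 7 of the chemicals count as lung tumour positives and 6 as negatives, and the question here is whether transcripts of lipid synthesis differed from the matched controls.

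Cholesterol is built from acetyl-CoA through mevalonate and squalene, and fatty acids are built from the same precursor by acetyl-CoA carboxylase and fatty acid synthase and then elongated and desaturated. The membrane-bound factors SREBP-2 and SREBP-1, made from Srebf2 and Srebf1, are released when sterols run low and switch on the genes of both branches, while Insig proteins hold them back. In the lung these lipids supply cell membranes and the surfactant that alveolar type II cells secrete, and surfactant phospholipid is rich in saturated fatty acids.

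All values below are log2 signals, and a difference of 1 is a doubling. Differences are group means of a limma fit with their standard errors (SE), and a gene is called where its Benjamini-Hochberg adjusted p is under 0.05. A probe set's signal is compared between animals and not with that of another gene. Alveolar type II markers were high in every lung, with a mean over 10 markers between 11.92 and 12.52. Adipoq, made by fat cells, ran from 3.10 to 10.0 between animals, so that the lobes differed in a fat cell transcript. RNA of a whole lobe cannot tell fewer cells of a type from less RNA per cell. The first component of the deviations from group means, computed without the members, held 26.4% of that variance. On this axis the 4 water controls had the highest group mean, 45.2 (SD 16.4), while the corn oil controls of set 2 stood at 12.4 (SD 24.5, n = 8) and its feed controls at 1.03 (SD 14.8, n = 4). All groups of set 1 had means between -44.6 and -33.9, and no comparison below crosses the sets unless it says so.

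Few members passed the threshold with any chemical. With 3 or 4 mice in a treated group, a missing call does not show that a gene was unchanged. No member was called in 9 of 13 chemicals, and the median change over the 28 members lay between -0.18 and 0.14 log2 units. The other 4 chemicals gave 11 calls: 1 with 2,3-benzofuran, 2 with coumarin, 3 with 1,2-dibromoethane and 5 with N-methylolacrylamide. With 2,3-benzofuran 3.55% of all genes were called higher and 0.521% lower, and with coumarin 2.91% and 1.18%. With 1,2-dibromoethane these shares were 1.94% and 2.09%, and with N-methylolacrylamide 10.7% and 7.13%. The member calls were not tested against these shares. All 4 chemicals are among the 7 labelled positive, and none of the 6 labelled negative had a member called. Over 100 genes in all were called in 5 of the 7 positive and 1 of the 6 negative chemicals, and the difference between classes was not tested. The map of changes shows scattered calls in the chemicals and runs of calls where the water controls take part.

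**Figure D1:**
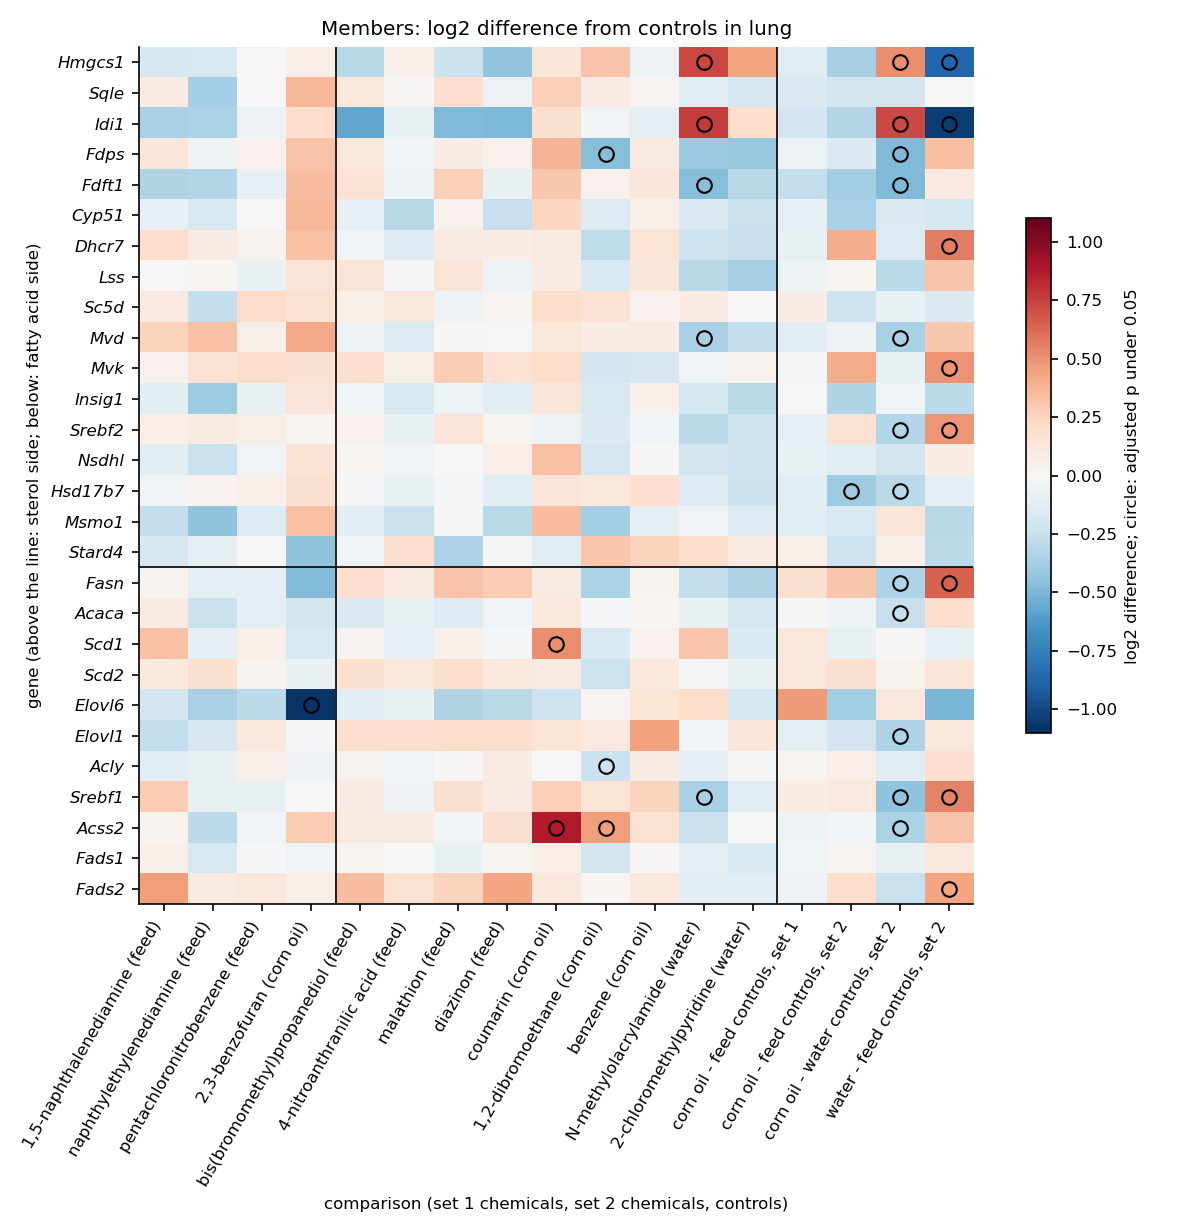
Log2 difference of each member (rows) in each comparison (columns), red higher and blue lower than the controls named, with a circle where the limma adjusted p was under 0.05. Acss2 with coumarin reached 0.87 and Elovl6 with 2,3-benzofuran -1.08, and the last columns hold the comparisons of control groups, where Hmgcs1 and Idi1 run against most other called members.

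Acss2 rose with coumarin and had the smallest adjusted p of any member with any chemical. It encodes the nuclear and cytosolic acetyl-CoA synthetase that turns acetate into acetyl-CoA. Its signal was 8.97, 9.41, 9.00 and 9.21 in the 4 coumarin mice. The 8 corn oil controls ran from 7.88 over a median of 8.33 to 8.49. Every treated mouse lay above every control, and Acss2 was 1.83-fold higher (log2 difference 0.87, SE 0.12, limma adjusted p = 3.295e-07). A further probe set of the gene differed by 0.99, and a dim probe set, which did not follow the other probe sets between animals, by 0.28. The call held under each of 26 alternatives, with differences from 0.71 to 0.98.

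Scd1 also rose with coumarin. It encodes the stearoyl-CoA desaturase that puts the double bond into stearate and palmitate. Its signal was 13.26, 13.09, 12.81 and 12.87 with coumarin and ran from 11.91 over 12.57 to 12.85 in the corn oil controls, so that 1 treated mouse lay within the controls. Scd1 was 1.42-fold higher (0.51, SE 0.12, limma adjusted p = 0.004794), and its second probe set differed by 0.95. The limma adjusted p was 0.05326 without coumarin animal 2-72, and 0.1776 when only the arrays of these groups entered the fit. The difference was 0.33 with array weights (adjusted p = 0.06493) and 0.33 against controls pooled over the sets (adjusted p = 0.1473), and Scd1 was not called in either.

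Of the 28 members 2 were called higher with coumarin, where 2.91% of all genes were called higher, and 0 were called lower, where 1.18% were. In all 25 of 28 members had a positive difference (89.3%, against 48.5% of all genes), with a median of 0.14 against -0.01 for all genes. Against the same corn oil controls 23 members were positive with benzene (82.1%, against 59.3% of all genes). With 1,2-dibromoethane 12 were (42.9%, against 48.9%). The members vary together in part, so such counts are not independent. With coumarin the count of called members was 4 without control animal 2-132 and 1 without treated animal 2-72. At an unadjusted p under 0.05, 8 members were higher and 0 lower. Among these were Nsdhl, a sterol dehydrogenase, at 0.32 (SE 0.10, adjusted p = 0.05181), Fdps, the farnesyl diphosphate synthase, at 0.37 (SE 0.14), and Srebf1 at 0.26 (SE 0.11). None of these 3 passed the limma threshold. Outside the members, Tm7sf2, a sterol C14 reductase of the same pathway, rose by 0.69 (SE 0.13, adjusted p = 0.0001871), and Npc2, which carries cholesterol out of lysosomes, by 0.17 (SE 0.04, adjusted p = 0.01359). They were 2 of 8 tested genes of the list of other sterol genes, and 0 of 21 further fatty acid genes were called. Of 5 genes of NADPH supply or the pentose phosphate pathway, 3 rose: Idh1, Pgd and Tkt. Idh1 and Pgd make NADPH, which sterol and fatty acid synthesis consume.

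Coumarin also moved markers of other lung cells. Those that rose were 3 of 7 for ciliated cells, 2 of 6 for club cells and Muc1 among 10 for alveolar type II cells, and 3 of 6 endothelial markers fell. The ciliated list averaged 8.83 (SD 0.17) with coumarin and 8.42 (SD 0.27) in the controls. The club cell list averaged 11.91 (SD 0.20) against 11.36 (SD 0.45), and the endothelial list 10.23 (SD 0.09) against 10.57 (SD 0.08). The alveolar type II list lay between 12.35 and 12.41 with coumarin and between 12.09 and 12.42 in the controls. White adipocyte markers were called in 0 of 6, and of 3 brown adipocyte markers Cidea, a lipid droplet gene, rose by 1.29 (SE 0.28, limma adjusted p = 0.001696), more than either member. Car4, placed on the macrophage list, fell by 0.35, and the lymphocyte marker Nkg7 by 0.72. The macrophage list itself averaged 9.56 (SD 0.22) with coumarin and 9.58 (SD 0.11) in the controls. With the alveolar type II list or Adipoq as a covariate, both members kept their calls, and the part of the other cell types was not tested.

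**Figure D2:**
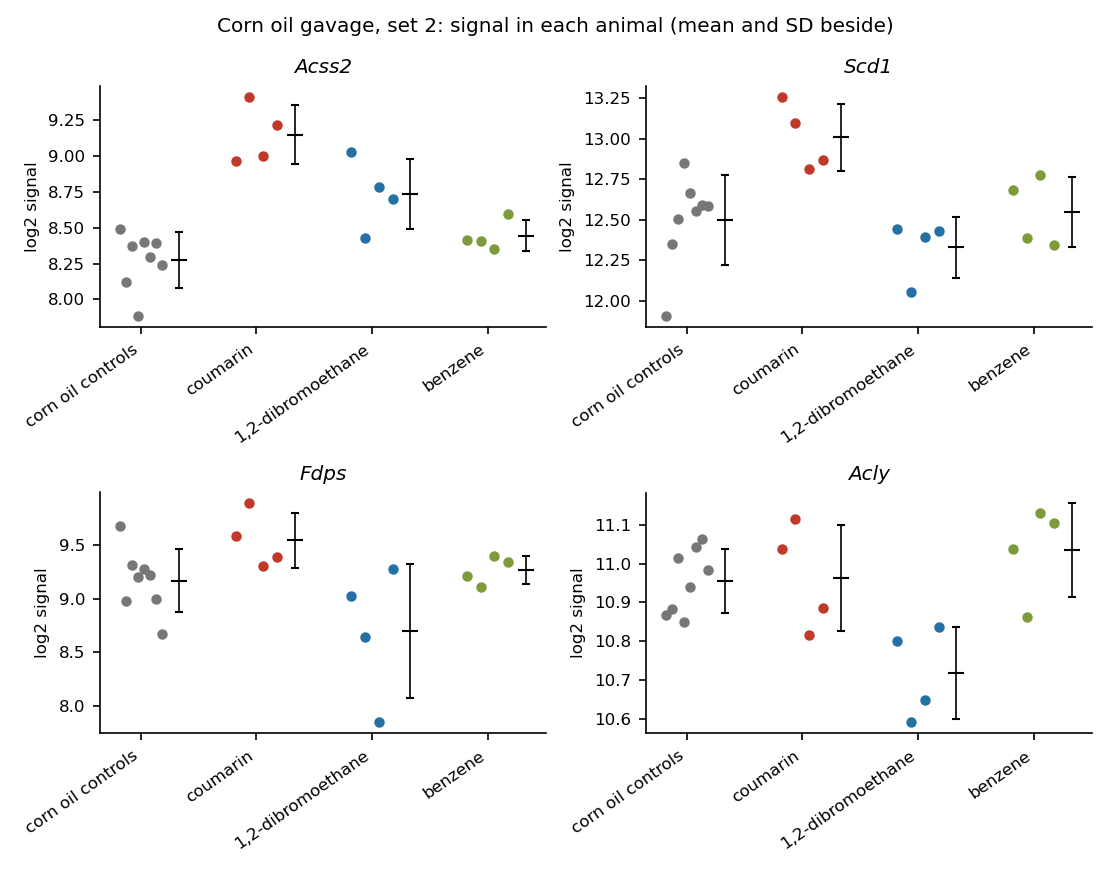
Log2 signal of Acss2, Scd1, Fdps and Acly in each animal of the corn oil groups of set 2, with the mean and SD of the group beside the points. The 4 coumarin mice lie above all 8 controls for Acss2, and a single 1,2-dibromoethane mouse at 7.85 is apart for Fdps.

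1,2-Dibromoethane shared the 8 corn oil controls with coumarin and benzene, so the 3 comparisons are not independent. Acss2 was 9.03, 8.43, 8.78 and 8.70 in these 4 mice, and 3 of them lay above every control. Its difference was 0.46 (SE 0.12, limma adjusted p = 0.0164), and it was 0.36 with an adjusted p of 0.08905 without animal 2-52. It was the 1 member called higher, where 1.94% of all genes were called higher. Benzene gave 0.17 (SE 0.12) for Acss2, which was not called.

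The 2 members called lower with 1,2-dibromoethane were Acly and Fdps, where 2.09% of all genes were called lower. Acly, the ATP citrate lyase that makes cytosolic acetyl-CoA from citrate, read 10.80, 10.59, 10.65 and 10.84, against 10.85 over 10.96 to 11.06 in the controls. The groups did not overlap, and the difference was small, at -0.24 (SE 0.06, limma adjusted p = 0.02479). Fdps read 9.02, 8.64, 7.85 and 9.27 against 8.67 over 9.21 to 9.68, a difference of -0.47 (SE 0.14, adjusted p = 0.03755). A single mouse carried much of that difference.

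That mouse, animal 2-56, also had the widest gap between 3' and 5' control probe sets, a sign of RNA breakdown, at 0.99 log2 units against 0.14 to 0.25 in the other 3. Without it the difference of Fdps was -0.19 (limma adjusted p = 0.4577) and that of Acly -0.21 (adjusted p = 0.07815). With the 3' to 5' gap as a covariate Fdps stood at -0.28 (adjusted p = 0.1502) and Acly at -0.21 (adjusted p = 0.05021). Over all 70 arrays the deviations of Fdps from group means had a correlation of -0.61 with that gap. Alveolar type II markers fell in 4 of 10 with 1,2-dibromoethane, their mean running from 11.93 to 12.38. Of 7 ciliated cell markers 3 rose, Dynlrb2 by 0.73, Rsph1 by 0.64 and Cfap126 by 0.56, and of 6 club cell markers Aldh1a7 rose by 0.41. Of 6 macrophage markers Siglecf fell by 1.07 and Car4 by 0.47, and of 6 fibroblast markers Tcf21 fell by 0.35. The part of these 4 lists in the changes of Acss2, Fdps and Acly was not tested. With the alveolar type II mean as a covariate neither Fdps (-0.39, adjusted p = 0.164) nor Acly (-0.17, adjusted p = 0.1775) was called. Fasn, the fatty acid synthase, differed by -0.35 (SE 0.11, adjusted p = 0.05984) and was not called. Without treated animal 2-54, 1 member was called in all, with neither Acly (-0.19, adjusted p = 0.1265) nor Fdps (-0.45, adjusted p = 0.09629) among the calls, and without 2-58, 5 were. Fdps was also not called without corn oil control animal 2-132, 2-59, 2-93 or 2-95 (adjusted p from 0.05217 to 0.08478).

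Benzene had no member called, where 0.0891% of all genes were called in either direction. At an unadjusted p under 0.05 there were 2 members, and the larger was Elovl1, an elongase of very long fatty acids, at 0.44 (SE 0.11, limma adjusted p = 0.1743).

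2,3-Benzofuran lowered 1 member, Elovl6, the elongase that makes stearate from palmitate. Its signal was 5.80, 5.41 and 6.09 in treated mice and 6.50, 7.52 and 6.51 in the corn oil controls of set 1, which did not overlap. The difference was -1.08 (SE 0.28, limma adjusted p = 0.01839), or 2.11-fold lower. Calls lower covered 0.521% of all genes in this comparison and calls higher 3.55%, with 0 members called higher. A second probe set of Elovl6 differed by -0.81 and a dim one, which did not follow the main probe set between animals, by -0.52.

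Elovl6 varied more between animals of a group than any other member. Control animal 1-24 stood at 7.52, and without it the difference was -0.74 (limma adjusted p = 0.2057). Elovl6 was also not called without treated animal 1-10 (-1.09, adjusted p = 0.1654) or 1-6 (-0.90, adjusted p = 0.07092). The feed controls of the same set read 5.95, 7.01 and 6.17, and the treated mice overlapped with them. Elovl6 followed fat cell transcripts: over 70 arrays its deviations from group means had a correlation of 0.64 with Adipoq (0.81 in set 1, 0.67 in set 2) and 0.71 with the mean of 6 white adipocyte markers. Adipoq read 9.23, 7.92 and 8.74 with 2,3-benzofuran and 8.18, 10.02 and 8.48 in the corn oil controls, with animal 1-24 the highest of the 70. None of the 6 white adipocyte markers was called, their mean running from 7.15 to 7.88 with 2,3-benzofuran and from 7.25 to 8.65 in the controls. Of 7 ciliated cell markers Cfap126 rose by 0.94 and Dynlrb2 by 0.74, and of 6 fibroblast markers the collagen genes Col1a1, Col1a2 and Col3a1 fell by 1.05, 0.70 and 0.67. The ciliated list ran from 9.13 to 9.56 with 2,3-benzofuran and from 8.58 to 8.88 in the controls, the fibroblast list from 10.24 to 10.88 against 11.10 to 11.19, and their part was not tested. With Adipoq as a covariate the difference was -1.05 (adjusted p = 0.002161). Against the corn oil controls of both sets together it was 0.03. Elovl6 was lower in set 2, with 5.31 (SD 0.35, n = 8) in its corn oil controls against 6.84 (SD 0.59, n = 3) in those of set 1.

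**Figure D3:**
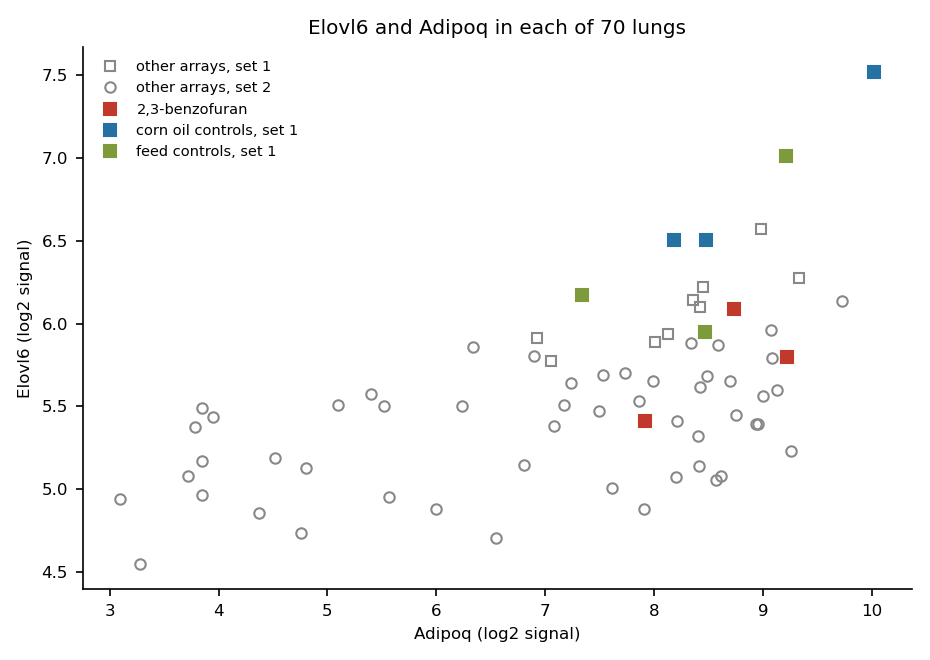
Log2 signal of Elovl6 against Adipoq in each of 70 lungs, squares for set 1 and circles for set 2, with the groups of the 2,3-benzofuran comparison and the feed controls of set 1 in colour. The 3 treated mice lie between 5.41 and 6.09 for Elovl6 and below the corn oil controls, and the control with the highest Adipoq, 10.02, also has the highest Elovl6.

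Other members with 2,3-benzofuran differed by less than the threshold allows. Fasn differed by -0.47 (SE 0.15, limma adjusted p = 0.05308) and Mvd, the mevalonate diphosphate decarboxylase, by 0.42 (SE 0.14, adjusted p = 0.08737). Of the 14 mevalonate, squalene and sterol steps none was called, with medians of 0.20 and 0.32 for the 2 groups of genes. Among further fatty acid genes Thrsp, a lipogenic regulator of fat and liver, fell by 1.32 (SE 0.38, adjusted p = 0.03177), the 1 of 21 called.

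The water controls of set 2 held most of the remaining calls. Against the feed controls 8 of 28 members were called, and against the corn oil controls 12, while N-methylolacrylamide gave 5. These 3 comparisons share the same 4 water control mice, and their values are given side by side. Genome-wide they were also the widest: water against feed controls called 15.5% of all genes higher and 18.2% lower, and corn oil against water controls 12.3% higher and 10.6% lower. In the first comparison 6 members were called higher (21.4% of 28) and 2 lower (7.14%), and in the second 2 higher (7.14%) and 10 lower (35.7%). The higher calls of the first are thus not far from the share of all genes, and the lower calls of the second are above it.

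Hmgcs1 and Idi1 were low in the water controls. Hmgcs1 encodes the cytosolic HMG-CoA synthase at the entry to the mevalonate pathway, and Idi1 the isomerase of isopentenyl diphosphate. Hmgcs1 read 9.10, 8.31, 9.17 and 9.49 in the water controls. The feed controls read 10.46, 9.58, 9.64 and 9.88, all above them, and the corn oil controls ran from 8.67 over 9.60 to 9.94 and overlapped. Water minus feed was -0.87 (SE 0.22, limma adjusted p = 0.001564) and corn oil minus water 0.51 (SE 0.19, adjusted p = 0.04187). The 3 other probe sets of Hmgcs1 with a clear signal gave -0.70, -0.58 and -0.50 for water minus feed.

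Idi1 read 7.41, 6.88, 7.19 and 7.73 in the water controls, and 9.05, 8.23, 7.98 and 8.14 in the feed controls, again without overlap. The corn oil controls ran from 7.34 over 8.12 to 8.49. Water minus feed was -1.04 (SE 0.22, limma adjusted p = 0.0003076), and the second probe set gave -1.23. Corn oil minus water was 0.72 (SE 0.19, adjusted p = 0.004844). In both genes the lowest signal among the controls of set 2 was that of the same mouse, water control animal 2-124. The lowest corn oil control, at 8.67 for Hmgcs1 and 7.34 for Idi1, lay below the other 3 water controls in Hmgcs1 and below 2 of them in Idi1. Without that mouse corn oil minus water was 0.27 for Hmgcs1 (limma adjusted p = 0.3844) and 0.58 for Idi1 (adjusted p = 0.06765). Hmgcs1 also lost this call without water control animal 2-121 or 2-127 or corn oil control animal 2-59, 2-60, 2-93 or 2-99 (adjusted p from 0.05491 to 0.09664) and with the 3' to 5' gap as a covariate (0.48, adjusted p = 0.06197).

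The transcription factors and several later enzymes went the other way. Srebf1 read 10.21, 9.94, 10.09 and 9.74 in the water controls and 9.43, 9.54, 9.52 and 9.31 in the feed controls, with no overlap (0.55, SE 0.12, limma adjusted p = 0.0006324). Srebf2 read 9.42, 9.45, 9.22 and 9.04 against 8.75, 8.97, 8.78 and 8.68 (0.49, SE 0.11, adjusted p = 0.0005307). Fasn read 11.15, 11.19, 11.23 and 10.75 against 10.31, 10.63, 10.25 and 10.53 (0.65, SE 0.13, adjusted p = 0.0001784). All 3 were higher in every water control than in any feed control. The mevalonate kinase Mvk rose by 0.49 (SE 0.17), Dhcr7, the last reductase of cholesterol synthesis, by 0.56 (SE 0.19), and the delta-6 desaturase Fads2 by 0.44 (SE 0.16), with limma adjusted p of 0.01972, 0.0167 and 0.03114. These 3 calls were less firm: without water control animal 2-121 Dhcr7 was 0.36 (adjusted p = 0.149), and without feed control animal 2-45 it was 0.45 (adjusted p = 0.07908). Fads2 was not called without water control animal 2-121, 2-124 or 2-127 or feed control animal 2-44 or 2-45 (0.34 to 0.40, adjusted p from 0.0702 to 0.1297), and Mvk not without 2-124 or 2-42 (adjusted p of 0.05225 and 0.05925). With the 3' to 5' gap as a covariate Fads2 was 0.37 (adjusted p = 0.07936) and Mvk 0.41 (adjusted p = 0.06064).

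Against the corn oil controls the water controls were higher for 10 members, given here as corn oil minus water. Srebf1 differed by -0.44 (SE 0.11, limma adjusted p = 0.002628), Fdft1, the squalene synthase, by -0.49 (SE 0.13, adjusted p = 0.005508), and Fdps by -0.49 (SE 0.14, adjusted p = 0.009105). Mvd, Acss2, Fasn, Elovl1, Srebf2, Hsd17b7 and the acetyl-CoA carboxylase Acaca were lower by 0.25 to 0.36. Acss2 alone among the 12 called members had groups that did not overlap. When only the 12 arrays of these groups entered the fit, 0 members were called, and without water control animal 2-121, 2-124 or 2-127 the counts were 5, 3 and 6.

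The axis along which animals of a group differ ran through the same members. Over 70 arrays the deviations of Hmgcs1 and Idi1 from group means had correlations of -0.76 and -0.76 with it, Mvd of 0.71, Srebf1 of 0.64 and Srebf2 of 0.57. With the axis as a covariate 0 members were called in each of the 3 comparisons with the water controls. Water minus feed was then -0.17 for Hmgcs1, -0.34 for Idi1, 0.22 for Srebf1 and 0.52 for Fasn, with limma adjusted p of 0.6671, 0.3175, 0.3259 and 0.07825. The groups themselves differ on the axis, with means of 45.2 in water, 12.4 in corn oil and 1.03 in feed controls. As a covariate it overlaps with these comparisons for any gene, and the share of all genes called in that fit is not given here. The alveolar type II list ran from 12.35 to 12.52 in the water controls and from 12.24 to 12.31 in the feed controls, and 5 members kept a call with it as a covariate. The 3' to 5' gap of the water controls had the lowest group mean, 0.12, against 0.29 in the feed controls. Endothelial markers were called higher in 4 of 6 in water against feed controls, lymphocyte markers in 2 of 7, and Sftpb and Col1a1 were called higher in their lists. Lower were Mrc1 (-1.20) and Fabp1 (-0.89) among 6 macrophage markers, of which Fabp1 is also a liver gene. Also lower were Clic5, Ccdc39, Aldh1a7 and Lpl among type I, ciliated, club and white adipocyte markers. The means of these 4 lists were 11.87, 8.33, 11.54 and 7.15 in the water controls. In the feed controls they were 11.95, 8.68, 11.54 and 7.03, so that the club cell and white adipocyte means were not lower with water. Of 7 hepatocyte markers Fgb fell by 1.14 (SE 0.44, limma adjusted p = 0.03953), and the list averaged 5.96 (SD 0.35) over 4 water, 6.88 (SD 0.66) over 4 feed and 6.15 (SD 0.83) over 8 corn oil controls. Alb, the albumin gene of hepatocytes, averaged 7.99 (SD 0.77), 9.96 (SD 0.93) and 8.58 (SD 1.51) in that order. Liver expresses sterol synthesis genes strongly, and the part of these marker lists was not tested. Set 1 had no water controls, so the vehicle and any other feature of these 4 mice cannot be told apart.

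**Figure D4:**
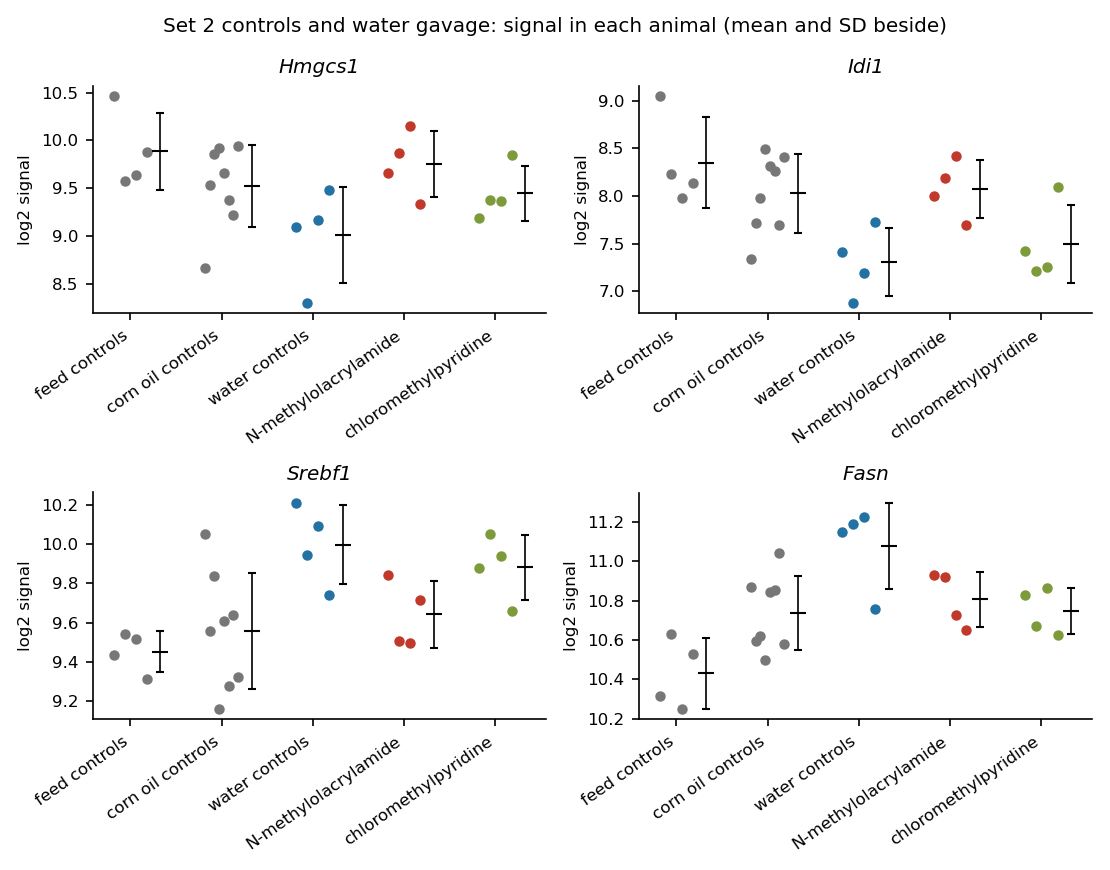
Log2 signal of Hmgcs1, Idi1, Srebf1 and Fasn in each animal of the set 2 controls and the water gavage groups, with mean and SD of each group beside the points. The 4 water controls are lowest on average for Hmgcs1 and Idi1 and highest for Srebf1 and Fasn, and the N-methylolacrylamide mice lie nearer the other controls.

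N-methylolacrylamide was set against these water controls. Idi1 read 8.00, 8.19, 8.42 and 7.69 with it and was 0.77 higher (SE 0.22, limma adjusted p = 0.01241), and Hmgcs1 read 9.66, 9.87, 10.15 and 9.34 and was 0.74 higher (SE 0.22, adjusted p = 0.01531). In both genes 1 treated mouse overlapped with the controls. Both treated groups lay within the range of the corn oil and feed controls of set 2. The 2 higher calls stand beside 10.7% of all genes called higher, and the 3 lower calls beside 7.13% called lower. Single markers were called higher in the same comparison, each the 1 called in its list. Mrc1 of the macrophage list rose by 1.04, Lpl of the white adipocyte list by 1.07, Clic5 of the type I list by 0.67 and Tek of the endothelial list by 0.49. In that order the list means were 9.43, 7.09, 11.92 and 10.54 with N-methylolacrylamide. In the water controls they were 9.30, 7.15, 11.87 and 10.55, so that the white adipocyte and endothelial means were not higher. Adipoq averaged 7.28 (SD 1.81) against 7.62 (SD 2.08). The hepatocyte list averaged 5.54 (SD 0.43) with N-methylolacrylamide and had no call, and the part of these cells was not tested.

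The 3 lower members were Fdft1, Mvd and Srebf1. Fdft1 read 8.97, 8.66, 8.79 and 8.41 with N-methylolacrylamide, below the 9.16, 9.06, 9.26 and 9.22 of the water controls (-0.47, SE 0.15, limma adjusted p = 0.02431). Mvd read 6.75, 6.55, 6.68 and 6.60 against 7.08, 7.22, 6.84 and 6.87, also without overlap (-0.36, SE 0.13, adjusted p = 0.04033). Srebf1 differed by -0.36 (SE 0.12, adjusted p = 0.03675) and overlapped. With the within-group axis or the alveolar type II list as a covariate, 0 of the 5 were called. Leaving out 1 mouse at a time gave 0 to 8 called members: 2, 0, 3 and 8 without water control animal 2-121, 2-124, 2-127 or 2-129, and 0 and 1 without treated animal 2-102 or 2-106.

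2-Chloromethylpyridine hydrochloride had no member called, where 0.0% of all genes were, and it shares the water controls. At an unadjusted p under 0.05, 8 members were lower and 0 higher (28.6%, against 11.7% of all genes in either direction). The 8 were Fdps, Lss, Fasn, Fdft1, Insig1, Mvd, Hsd17b7 and Srebf2, with differences from -0.42 to -0.23. The median over the members was -0.18, against -0.04 for all genes.

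Among the feed chemicals no member was called. Beside this, 1.11% of all genes were called in either direction with 1,5-naphthalenediamine, 0.00685% with N-(1-naphthyl)ethylenediamine dihydrochloride, 0.00685% with pentachloronitrobenzene, 2.19% with malathion and 0.00685% with diazinon, and 0.0% with both 2,2-bis(bromomethyl)-1,3-propanediol and 4-nitroanthranilic acid. At an unadjusted p under 0.05 the members numbered 2, 4, 0, 3, 3, 2 and 0 in that order. Idi1 was among them with malathion (-0.49, SE 0.22), diazinon (-0.50, SE 0.22) and 2,2-bis(bromomethyl)-1,3-propanediol (-0.58, SE 0.22), with limma adjusted p of 0.2194, 0.8832 and 0.3777. These 3 share the feed controls of set 2, in which animal 2-42 had an Idi1 signal of 9.05 and the other 3 were at 7.98 to 8.23. Pgd, which makes NADPH in the pentose phosphate pathway, rose by 0.84 (SE 0.11, limma adjusted p = 2.146e-07) with 1,5-naphthalenediamine, together with Taldo1 and Me1. Thus 3 of 5 genes of NADPH supply or the pentose phosphate pathway were called where no member was. Pgd was also called higher with 2,3-benzofuran (0.48), coumarin (0.34), 1,2-dibromoethane (0.47) and malathion (0.42).

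1,5-Naphthalenediamine and N-(1-naphthyl)ethylenediamine dihydrochloride are both amines built on naphthalene, and both were fed at 2000 ppm to mice of set 1. The first carries an amino group on each ring, and the second a single amino group that is extended by an aminoethyl chain. Compared directly, in 1 pair, no member differed past the threshold, where 1.67% of all genes did. At an unadjusted p under 0.05, 6 members were higher with 1,5-naphthalenediamine and 0 lower. The widest was Sqle, the squalene epoxidase, at 0.46 (SE 0.16, 95% interval 0.15 to 0.78, limma adjusted p = 0.1535). Scd1 differed by 0.42 (SE 0.16, 95% interval 0.11 to 0.74, adjusted p = 0.2146), and the intervals leave room for differences on this scale.

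Corn oil by gavage, which brings dietary fat, was compared with feed controls in both sets. In set 1 no member was called, where 0.0% of all genes were, and 0 members had an unadjusted p under 0.05. In set 2 Hsd17b7, a ketoreductase of sterol synthesis, was the 1 member called lower, where 1.79% of all genes were, and 0 were called higher, where 1.67% were. Hsd17b7 ran from 6.73 over 7.01 to 7.29 in the corn oil controls and read 7.74, 7.22, 7.42 and 7.32 in the feed controls (-0.39, SE 0.10, limma adjusted p = 0.01355). Without feed control animal 2-42 it was -0.29 (adjusted p = 0.1348), and with the amount of RNA solution as a block -0.27 (adjusted p = 0.1605). The other probe sets of Hsd17b7, all dimmer, differed by -0.18, 0.0003 and -0.16. Their mean with the main probe set differed by -0.18 (limma adjusted p = 0.1069). Without corn oil control animal 2-132, 2-59 or 2-99 the count was 2. In the same comparison the endothelial markers Tie1 and Cdh5 were called higher (0.52 and 0.39, 2 of 6), the lymphocyte marker Cd3e higher (0.38, 1 of 7) and the ciliated markers Dynlrb2 and Rsph1 lower (-0.47 and -0.45, 2 of 7), and their part was not tested. The difference between the sets in this contrast was called for 0 members, where 0.0% of all genes were, and 1 member had an unadjusted p under 0.05, Elovl6 at -0.85 (SE 0.35).

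Within groups the members varied together only in part. After group means were subtracted, the median correlation over 70 arrays was 0.26 among 136 pairs of sterol genes, 0.22 among 55 pairs of fatty acid genes and 0.15 across the branches, against 0.02 for all pairs of tested genes. The arrays share their processing, and these correlations are a description. Cyp51, the lanosterol demethylase, and Msmo1, the sterol methyl oxidase that acts further on, had the highest value, 0.85. Hmgcs1 and Idi1 followed at 0.83, and Sqle and Msmo1 at 0.74. The lowest were Mvk with Elovl6 at -0.54 and Mvd with Stard4 at -0.54, followed by Idi1 with Srebf1 and Hmgcs1 with Srebf2, both at -0.52. Acly had the lowest spread of the members, an SD of 0.10 within groups (percentile 1.33 of all tested genes), and Elovl6 the highest, 0.36 (percentile 92.4).

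**Figure D5:**
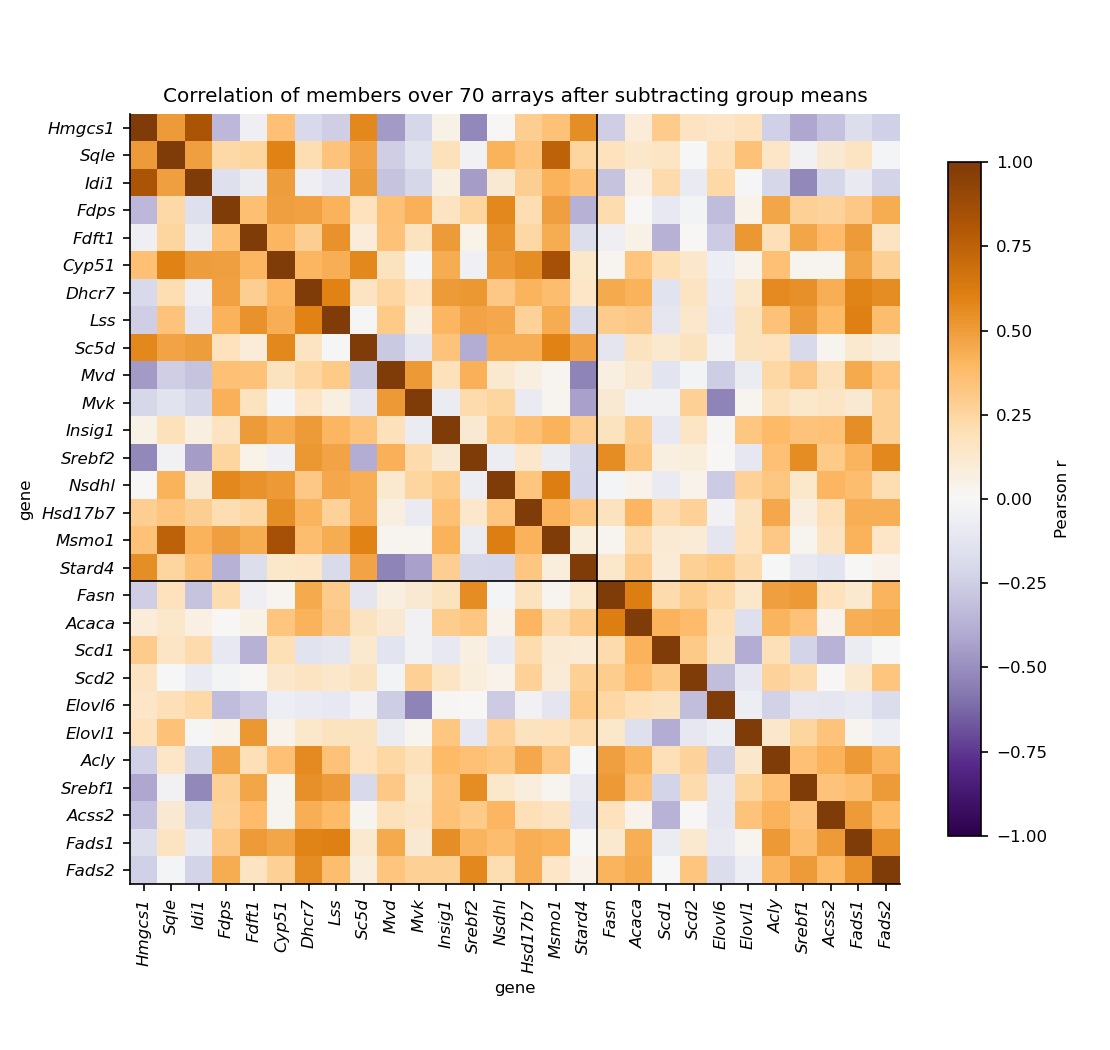
Pearson correlation of every pair of members over 70 arrays after subtracting group means, orange positive and purple negative, with lines between the sterol side (first 17 genes) and the fatty acid side. Cyp51 with Msmo1 (0.85) and Hmgcs1 with Idi1 (0.83) are the highest pairs, and Hmgcs1 is negative with Mvd (-0.46) and Srebf2 (-0.52).

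The promoters of these most closely tied pairs are shown because SREBP acts on such genes through a sterol regulatory element together with NF-Y, a factor that binds CCAAT. Each is the 250 bases before the annotated start, 5′ to 3′ on the gene's strand, from RefSeq on GRCm38.p6, with the capitals marking CCAAT, read on either strand, and the sterol element TCACNCCAC. They lie at chr13:119690101-119690350 (plus strand, Hmgcs1), chr13:8885356-8885605 (plus, Idi1), chr5:4104698-4104947 (minus, Cyp51) and chr8:64733579-64733828 (minus, Msmo1), upstream of the first exon.
Hmgcs1: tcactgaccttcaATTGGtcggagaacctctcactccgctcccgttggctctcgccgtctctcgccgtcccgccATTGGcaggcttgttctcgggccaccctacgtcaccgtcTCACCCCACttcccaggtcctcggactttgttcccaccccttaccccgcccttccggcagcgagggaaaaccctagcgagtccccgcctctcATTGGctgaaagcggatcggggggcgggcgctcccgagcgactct
Idi1: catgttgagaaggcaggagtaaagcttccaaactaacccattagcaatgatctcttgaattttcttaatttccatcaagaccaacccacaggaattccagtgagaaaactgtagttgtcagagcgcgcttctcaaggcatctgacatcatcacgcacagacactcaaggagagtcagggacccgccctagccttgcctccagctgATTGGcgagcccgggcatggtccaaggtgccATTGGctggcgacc
Cyp51: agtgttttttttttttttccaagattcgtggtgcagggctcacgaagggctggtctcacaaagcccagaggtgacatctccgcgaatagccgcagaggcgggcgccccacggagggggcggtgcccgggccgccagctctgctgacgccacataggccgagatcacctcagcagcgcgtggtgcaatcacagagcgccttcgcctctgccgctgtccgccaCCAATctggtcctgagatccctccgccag
Msmo1: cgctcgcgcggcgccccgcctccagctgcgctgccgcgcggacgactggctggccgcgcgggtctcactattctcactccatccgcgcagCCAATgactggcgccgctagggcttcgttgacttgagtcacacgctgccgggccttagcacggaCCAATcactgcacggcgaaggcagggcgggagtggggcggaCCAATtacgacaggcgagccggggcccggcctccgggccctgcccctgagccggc
In the windows of 250 bases before to 50 after the start, searched on both strands, Hmgcs1 held 4 CCAAT matches and Idi1 2, while Msmo1 held 3 and Cyp51 1. Of 21 members matched in the RefSeq table, CCAAT was found in 13 of 13 sterol and 5 of 8 fatty acid members, against 41.1% of 27025 genes and 42.3% of the protein-coding ones. The element TCACNCCAC was found in 1 of the 21, Hmgcs1, where TCACCCCAC begins 137 bases before the start, and in 1.44% of all genes. The E-box CACGTG was in 4 of 13 sterol and 0 of 8 fatty acid members, against 8.09% of all genes and 8.91% of the protein-coding ones. The GC box GGGCGG was in 13 of 13 and 5 of 8, against 38.2% and 49.2%. Matches describe these windows alone, and the pair Hmgcs1 and Idi1 shares CCAAT with nearly all other members.

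Other genes of the pathway were also called in comparisons with the water controls. Beside them, water against feed controls called 15.5% of all genes higher and 18.2% lower, and N-methylolacrylamide 10.7% and 7.13%. The counts below were not tested against those shares. Of 8 further sterol genes tested, water against feed controls called 1 higher and 1 lower: Npc2 rose by 0.15 (SE 0.05) and Ggps1, which makes geranylgeranyl diphosphate, fell by 1.37 (SE 0.26, limma adjusted p = 0.0001215), in the direction of Hmgcs1 and Idi1. Of 6 genes that process SREBP, Scap, its escort, rose by 0.46 (SE 0.10, adjusted p = 0.0004234), and Mbtps2, the site-2 protease that frees it, fell by 1.12 (SE 0.22, adjusted p = 0.0001859), with Erlin1 and Insig2 also lower. Of 21 further fatty acid genes 3 rose and 4 fell, among them Acacb, the mitochondrial acetyl-CoA carboxylase, at 0.62 and the acyl-CoA synthetases Acsl4 and Acsl3 at -1.36 and -1.11. Of 5 LXR receptors and targets, Abca1, which exports cholesterol, fell by 1.05 (SE 0.27, adjusted p = 0.002116) and Lpcat3 rose by 0.31. With N-methylolacrylamide against the same controls 1 of the 8 further sterol genes was called higher, Ggps1 (0.96), and 1 lower, the phosphomevalonate kinase Pmvk (-0.67, SE 0.23, limma adjusted p = 0.03901). Of the 6 SREBP processing genes Mbtps2 was called higher (1.07) and none lower. Of the 21 fatty acid genes 2 were called higher, Acsl4 (0.94) and Acsl3 (0.79), and 3 lower, Mlx (-0.42), Agpat2 (-0.39) and Dgat1 (-0.31). Of the 5 LXR receptors and targets Abca1 was called higher (1.22) and Nr1h3, which encodes LXR alpha, lower (-0.53).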

How the data were processed

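Right lung lobe RNA of 70 mice was measured on 1 array each. The values the authors deposited were read as log2 signals from their range. How they were summarized and normalized is not stated in the labels. Probe sets were named from the platform annotation of 2016. Probe sets with 1 symbol were kept, each gene took the probe set with the highest mean, and genes with a mean above the 30th percentile of probe sets (4.25) were tested (14593 of 18193). A limma model (version 3.58.1, R 4.3.3, lmFit and eBayes) held a mean for each group and all 70 arrays, with Benjamini-Hochberg adjustment over all genes in each comparison and 0.05 as threshold. Each array is a separate animal, and the number of arrays limits the precision. The statistics were tested on simulated data of the coumarin comparison, with independent noise for each gene. The simulated arrays did not hold the variation that genes share within groups, so the run does not cover it. The members and gene lists were chosen with earlier results of these data known. Every member may be named, with values for those that passed, at most 12 in each direction, and at most 6 genes of each other list, while a gene named otherwise was chosen after its values were seen. The level of Adipoq, the alveolar type II mean and the within-group axis as covariates, and a filter at the 30th percentile of genes, were alternatives added after seeing the data. Python 3.11.15 and matplotlib 3.10.9 drew the figures.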

Additional observations from a re-analysis of the deposited data

Results flagged for a closer look

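Of 48 groups of 4 to 10 mice examined for members called in a comparison with that group, 2 held an animal apart from the rest, and chance gives about 1 in 20. Both were water control animal 2-129. Its Acaca signal was 8.31, with the other 3 at 8.74 to 8.78, and its Fasn signal was 10.75, with the other 3 at 11.15 to 11.23. Without it the difference of corn oil minus water controls was -0.36 for Acaca and -0.45 for Fasn, and 15 members were called in that comparison and 8 with N-methylolacrylamide.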

How the results depend on the processing

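Over the comparisons, 413 of 422 alternative medians of the members moved by less than the spread between replicates, and 350 of 422 alternative counts stayed within 1.5 times the main count. For single called members, 578 alternatives kept the direction and the call, 167 lost the call and 2 changed sign. Those 2 were Elovl6 with 2,3-benzofuran with controls pooled over sets (0.034) and Hmgcs1 in corn oil minus water controls with the within-group axis as covariate (-0.014). Counts of called members follow, with the main count in brackets after each comparison's first mention. The shares of all genes called under these alternatives are not given here. The counts therefore do not show whether the members moved more than other genes. 2,3-Benzofuran (1) had 2 with the 3' to 5' gap or Adipoq as covariate, array weights, either other filter, renewed quantile normalization or a variance trend, 3 with the axis, 6 with pooled controls and 0 in the fit of its groups alone. Coumarin (2) had 1 with array weights or its groups alone, and 4 with pooled controls or the mean over all probe sets. 1,2-Dibromoethane (3) had 1 with the 3' to 5' gap, the alveolar type II list, array weights or the mean over probe sets, and 0 in its groups alone. N-methylolacrylamide (5) had 0 with the alveolar type II list or the axis, 15 with array weights and 2 in its groups alone. Corn oil minus feed controls in set 2 (1) had 2 with Adipoq or the axis, 0 with the RNA amount, the mean over probe sets or its groups alone, and 7 with array weights. Corn oil minus water controls (12) had 5 with the alveolar type II list and 0 with the axis or its groups alone. Water minus feed controls (8) had 13 with Adipoq, 5 with the alveolar type II list, 16 with array weights and 0 with the axis. 1,5-Naphthalenediamine minus N-(1-naphthyl)ethylenediamine dihydrochloride (0) had 5 with array weights and 1 with the axis, the mean over probe sets or its groups alone. Where the main count was 0, array weights gave 1 for N-(1-naphthyl)ethylenediamine dihydrochloride, benzene and diazinon, 3 for 2-chloromethylpyridine hydrochloride and 2,2-bis(bromomethyl)-1,3-propanediol and 4 for malathion. Pooled controls gave 2 for 1,5-naphthalenediamine and 2,2-bis(bromomethyl)-1,3-propanediol, 4 for N-(1-naphthyl)ethylenediamine dihydrochloride and 6 for malathion, and they carry the difference between sets. They also moved the medians to -0.082 for 1,5-naphthalenediamine, -0.044 for 2,3-benzofuran, 0.13 for 2,2-bis(bromomethyl)-1,3-propanediol, 0.052 for 4-nitroanthranilic acid, 0.17 for malathion and 0.11 for diazinon. The median of 2,3-benzofuran was 0.061 with the mean over probe sets and 0.052 with renewed quantile normalization. Leaving out 1 mouse at a time gave counts of 0 to 3 for 2,3-benzofuran, 1 to 4 for coumarin, 1 to 5 for 1,2-dibromoethane, 0 to 8 for N-methylolacrylamide, 0 to 2 for corn oil minus feed in set 2, 3 to 15 for corn oil minus water and 0 to 1 for the direct naphthalene pair, whose median ran from 0.017 to 0.17. The fits of the compared groups alone estimate the spread from fewer arrays, and the cause of these shifts was not tested in any setting. No paired analysis was possible because the labels give animals their own numbers and the groups share none.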
